A study of Homo sapiens with 6 samples.

Results

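The genes described here are the members of the tripartite motif (TRIM) family whose symbol is TRIM followed by a digit. Membership followed the gene symbol, by a rule set with earlier results of these data known. A probe set had to carry 1 gene symbol and that symbol had to begin in this way. The brightest such probe set by its mean over 6 arrays stood for the gene. This gave 55 genes of the 18417 tested, 54 of them protein-coding and 1, TRIM67-AS1, an antisense RNA that only shares the name. A further 20 TRIM symbols, TRIM13, TRIM16L, TRIM34, TRIM39, TRIM58 and TRIM6 among them, occurred only in probe sets that list several genes and were not analysed here.

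Affymetrix arrays were hybridised with RNA of MDA-MB-231, an established human triple-negative breast cancer cell line grown in 10% serum at 37 °C and treated near 70% confluence. Of 6 samples, 3 received the vehicle DMSO and 3 received 10 µM YW3-56 for 8 h, and the labels call the replicates biological without naming separate cultures. YW3-56 is known as an inhibitor of peptidylarginine deiminases, enzymes that turn protein arginine into citrulline. All values come from 1 cell line, 1 dose and 1 time.

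TRIM proteins share a front end made of a RING finger, 1 or more B-box zinc fingers and a coiled coil, and differ in the domain that follows. The RING recruits a ubiquitin-loaded E2 enzyme, so that most TRIM proteins act as E3 ubiquitin ligases, and the C-terminal domain selects the substrate. Many members restrict viruses or tune interferon and NF-kB signalling, others act in autophagy, on chromatin or at microtubules, and several are studied in breast and other cancers.

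Promoter sequence is shown for TRIM68, a member with one of the 2 largest rises, and for TRIM5, TRIM26 and TRIM14, antiviral members that were called and that hold an interferon-type motif. Each run gives the 250 bases before the gene's start from RefSeq, build GRCh38.p14, 5′ to 3′ on the gene's own strand, which is the minus strand for each of them. They lie at chr11:4608232-4608481 for TRIM68, chr11:5685075-5685324 for TRIM5, chr6:30213407-30213656 for TRIM26 and chr9:98119223-98119472 for TRIM14. Capitals mark matches to the motifs searched, of which these 4 windows hold only the GC box (GGGCGG or its reverse complement CCGCCC) and the core of the interferon-response element (GAAANNGAA, here always as its reverse complement TTCNNTTTC).
TRIM68: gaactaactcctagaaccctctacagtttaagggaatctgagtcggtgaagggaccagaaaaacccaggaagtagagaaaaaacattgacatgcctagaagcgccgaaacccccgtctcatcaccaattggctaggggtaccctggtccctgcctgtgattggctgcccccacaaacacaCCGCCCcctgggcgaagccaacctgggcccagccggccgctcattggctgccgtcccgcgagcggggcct
TRIM5: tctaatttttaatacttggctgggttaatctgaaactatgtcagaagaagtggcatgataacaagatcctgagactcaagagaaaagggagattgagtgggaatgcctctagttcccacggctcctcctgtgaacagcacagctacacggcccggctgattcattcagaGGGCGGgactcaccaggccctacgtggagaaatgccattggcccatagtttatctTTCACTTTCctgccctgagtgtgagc
TRIM26: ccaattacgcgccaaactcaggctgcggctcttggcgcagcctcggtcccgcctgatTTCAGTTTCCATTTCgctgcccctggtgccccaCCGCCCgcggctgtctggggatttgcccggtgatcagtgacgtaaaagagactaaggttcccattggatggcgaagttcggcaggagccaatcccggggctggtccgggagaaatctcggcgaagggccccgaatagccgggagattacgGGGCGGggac
TRIM14: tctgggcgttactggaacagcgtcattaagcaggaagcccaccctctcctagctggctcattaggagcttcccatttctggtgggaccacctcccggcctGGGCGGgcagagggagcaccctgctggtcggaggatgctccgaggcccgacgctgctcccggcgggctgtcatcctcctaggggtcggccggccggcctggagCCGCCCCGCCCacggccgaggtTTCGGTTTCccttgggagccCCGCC
The last GC box of TRIM14 runs 1 base past the start and is therefore printed without its final base. In TRIM26 a pair of interferon-type matches overlap each other.

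After YW3-56, 12 TRIM genes were higher and 2 were lower at an adjusted p under 0.05 (limma, Benjamini-Hochberg over all genes), and 41 did not pass. TRIM16, a family member without a RING that takes part in autophagy of damaged membranes, was 2.49-fold higher, TRIM68 was 2.14-fold higher and TRIM2, a ligase studied in neurons, was 1.99-fold higher. TRIM14, an adaptor of antiviral signalling at mitochondria, was 1.62-fold lower, and TRIM47, a RING ligase with a PRY-SPRY domain, was 1.5-fold lower. Called members made up 25.5% of the family, against 21.4% of all genes tested, so the share of calls lay near the background. The directions were spread differently: 21.8% of the family was called higher against 9.84% of all genes, and 3.6% was called lower against 11.5%. No test of this difference was made. A change of at least 2-fold was called for 2 of the 55 members, TRIM16 and TRIM68, and for 262 of 18417 genes, 1.42%.

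The median log2 fold change was -0.03 over the 55 members and -0.05 over all genes. Among genes at or above the median of gene means (8.20 on the log2 scale) it was 0.11 over 28 members, 16 of them above 0, and -0.05 over all 9209 such genes, 3905 of them above 0. The 3 treated arrays lay entirely above or below the 3 DMSO arrays for 21 members, 38.2%, against 36.9% of all genes. This held for each of the 14 called members and for 7 others. Bright genes were called more often: 12 of these 28 brighter members were called, 42.9%, against 34.5% of all such genes. A change of at least 2-fold was called for 2 of these 28 and for 229 of all 9209 such genes. Of the 27 dimmer members 2 were called, 7.4%, against 8.2% of all dimmer genes. Many tissue-restricted members, such as the muscle ligase TRIM63 and the brain-enriched TRIM67, are among the dimmer ones. Leaving out YW3-56 replicate 3 lowered the calls over all genes to 2364, or 12.8%, and those in the family to 11.

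**Figure D1:**
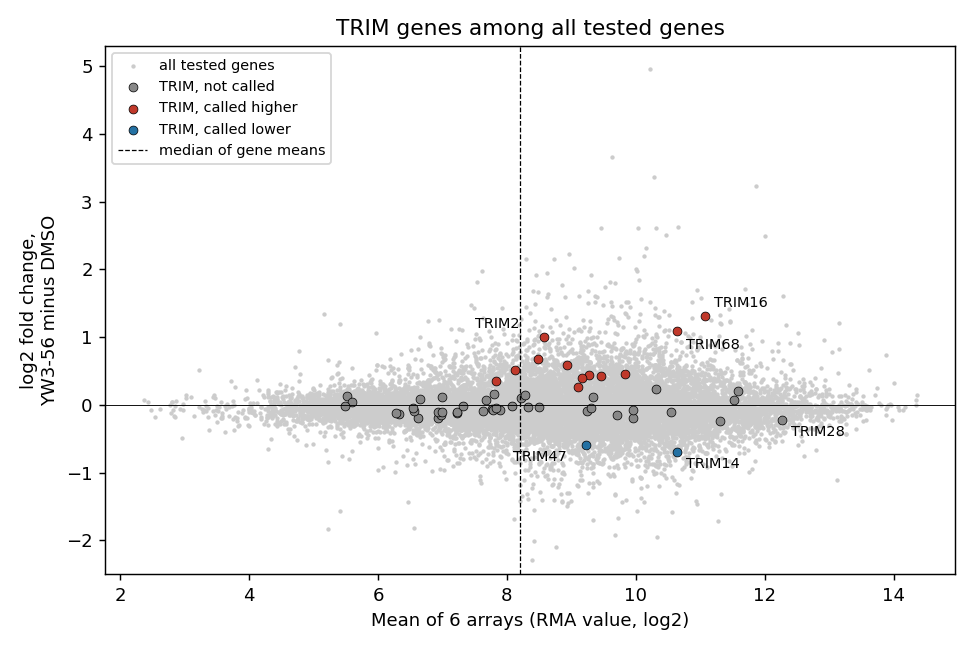
Each point is a gene, with its mean over 6 arrays on the log2 scale across and its log2 fold change (YW3-56 minus DMSO) upward; TRIM genes are coloured by their call and the dashed line marks the median of gene means. The red and blue TRIM points lie mostly to the right of that line, between -0.69 and 1.32.

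TRIM16 measured 10.64, 10.12 and 10.50 in the DMSO arrays and 11.81, 11.72 and 11.68 in the YW3-56 arrays. The groups did not overlap, and the DMSO arrays were the more spread (SD 0.27 against 0.06). Its log2 fold change was 1.32 with a standard error (SE) of 0.13 (n = 3 arrays in each group, adjusted p = 4.5e-04 by limma), between 1.17 and 1.49 over the 15 alternative settings. TRIM16L, a shorter copy of the gene, shares a further probe set with TRIM16, so signal from the copy cannot be separated with certainty. TRIM68, a RING and PRY-SPRY ligase related to TRIM21, had DMSO values of 10.10, 10.03 and 10.17 and YW3-56 values of 11.11, 11.22 and 11.25. These 6 values were tight within each group, and the rise of 1.09 ± 0.08 had the smallest adjusted p of the family (limma, 1.3e-04).

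TRIM2 and TRIM45 belong to the class with filamin-type or NHL domains. TRIM2 rose from 8.19, 8.15 and 7.89 in DMSO to 9.19, 8.92 and 9.11 in YW3-56, a change of 1.00 ± 0.11 (limma adjusted p = 6.5e-04). TRIM45, known as a repressor of MAP kinase signalling, measured 7.78, 7.91 and 7.90 in DMSO and 8.35, 8.45 and 8.36 in YW3-56. Its rise of 0.52 ± 0.07 passed (limma adjusted p = 0.0021) although its mean lay below the median of gene means. The other members of this class, TRIM3 (-0.03), TRIM32 (-0.11) and TRIM71 (-0.01), did not pass, with overlapping groups in each. TRIM32 is a ligase mutated in a limb-girdle muscular dystrophy, and its 95% interval ran from -0.32 to 0.10.

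**Figure D2:**
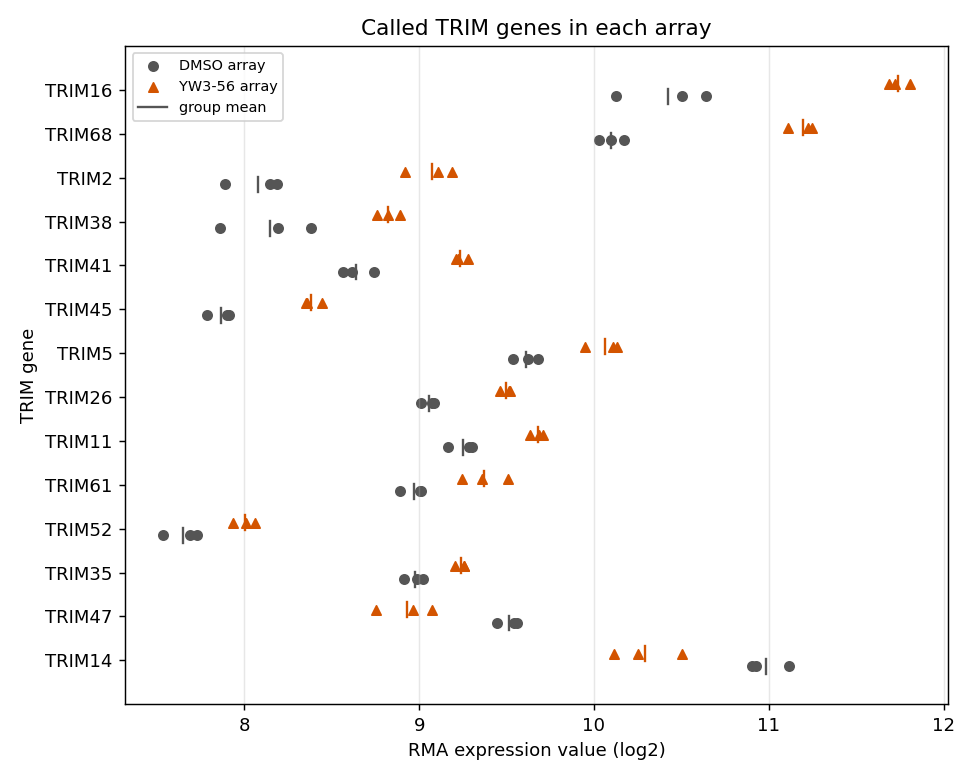
Expression values (log2) of the 14 called TRIM genes are plotted along the horizontal axis for each array, with grey circles for DMSO, orange triangles for YW3-56 and short lines for group means. In every row the 3 triangles lie on 1 side of the 3 circles, to the right for 12 genes and to the left for TRIM47 and TRIM14.

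The largest class carries a PRY-SPRY domain, the module that binds viral capsids, antibodies or other partners. It had 25 measured members, with 7 called higher, 1 called lower and 17 not called (median 0.09). Members grouped as lacking a RING, TRIM14 and TRIM16 among them, were counted apart, although TRIM14 and TRIM16 also end in a PRY-SPRY domain. The counts of this class therefore leave out TRIM16, which rose, and TRIM14, which fell. The class thus had 32% called and 28.0% called higher, against 21.4% and 9.84% of all genes. Beside TRIM68, TRIM38, a brake on Toll-like receptor and TNF signalling, rose by 0.68 ± 0.13 (limma adjusted p = 0.0068). It measured 8.19, 8.38 and 7.86 in DMSO and 8.82, 8.76 and 8.89 in YW3-56, so the DMSO arrays were the more scattered and the groups did not overlap. The TRIM38 call was lost when each gene was tested on its own variance alone, called the per-gene test here (adjusted p = 0.0657).

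TRIM41, a ligase for protein kinase C, went from 8.62, 8.57 and 8.74 in DMSO to 9.22, 9.21 and 9.28 in YW3-56, a rise of 0.60 ± 0.08 (limma adjusted p = 0.0013). TRIM5, which restricts retroviruses by binding their capsids, measured 9.54, 9.62 and 9.68 in DMSO and 9.95, 10.11 and 10.13 in YW3-56. That rise of 0.45 ± 0.08 (limma adjusted p = 0.0059) was close in size to that of TRIM26, a regulator of IRF3 and interferon induction, at 0.44 ± 0.07 (limma adjusted p = 0.0029). TRIM26 had DMSO values of 9.07, 9.01 and 9.08 and YW3-56 values of 9.52, 9.46 and 9.52. A second TRIM26 probe set rose by 0.45 (adjusted p = 0.0027 in a fit of every named probe set), an alternative chosen after seeing the data.

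TRIM11, which helps to clear misfolded proteins, rose by 0.43 ± 0.07 (limma adjusted p = 0.0047), with 9.17, 9.30 and 9.28 in DMSO and 9.64, 9.69 and 9.71 in YW3-56. TRIM35 had the smallest called change, 0.26 ± 0.07 (limma adjusted p = 0.030), from 8.91, 8.99 and 9.02 in DMSO to 9.20, 9.25 and 9.26. Its groups did not overlap, but the call was lost without DMSO replicate 1 (adjusted p = 0.053), DMSO replicate 2 (0.0899), YW3-56 replicate 1 (0.0639), YW3-56 replicate 2 (0.105) or YW3-56 replicate 3 (0.116).

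TRIM47 was the 1 gene called lower among the members counted in the PRY-SPRY class. It measured 9.56, 9.54 and 9.44 in DMSO and 8.96, 9.07 and 8.75 in YW3-56, a change of -0.59 ± 0.10 (limma adjusted p = 0.0038). The highest treated value, in YW3-56 replicate 2, stayed below the lowest DMSO value. The call held in all 15 alternatives, where the change ran from -0.66 to -0.50.

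TRIM14, the other member that fell, lacks a RING and ends in a PRY-SPRY domain. Its DMSO values were 11.12, 10.93 and 10.90 and its YW3-56 values 10.50, 10.25 and 10.11, without overlap. The change was -0.69 ± 0.11 (limma adjusted p = 0.0037), the largest fall in the family, and it held in all 15 alternatives. Of the 4 measured members grouped as lacking a RING, TRIM16 rose, TRIM14 fell, and TRIM29 (-0.10) and TRIM44 (-0.08) did not pass.

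Among 6 members with no named C-terminal domain, TRIM61 and TRIM52 rose, so 33.3% were called, against 21.4% of all genes. TRIM61 measured 9.01, 8.89 and 9.00 in DMSO and 9.36, 9.24 and 9.51 in YW3-56, a rise of 0.40 ± 0.09 (limma adjusted p = 0.014). TRIM52 went from 7.53, 7.69 and 7.73 to 7.93, 8.06 and 8.01, a rise of 0.35 ± 0.08 (limma adjusted p = 0.017). Both sets of arrays were apart, but both calls depended on single arrays. TRIM61 was lost without DMSO replicate 2 (adjusted p = 0.0633) or YW3-56 replicate 3 (0.0635) and in the per-gene test (0.0569). TRIM52 was lost without DMSO replicate 2 (0.0516), YW3-56 replicate 2 (0.074) or YW3-56 replicate 3 (0.0706).

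**Figure D3:**
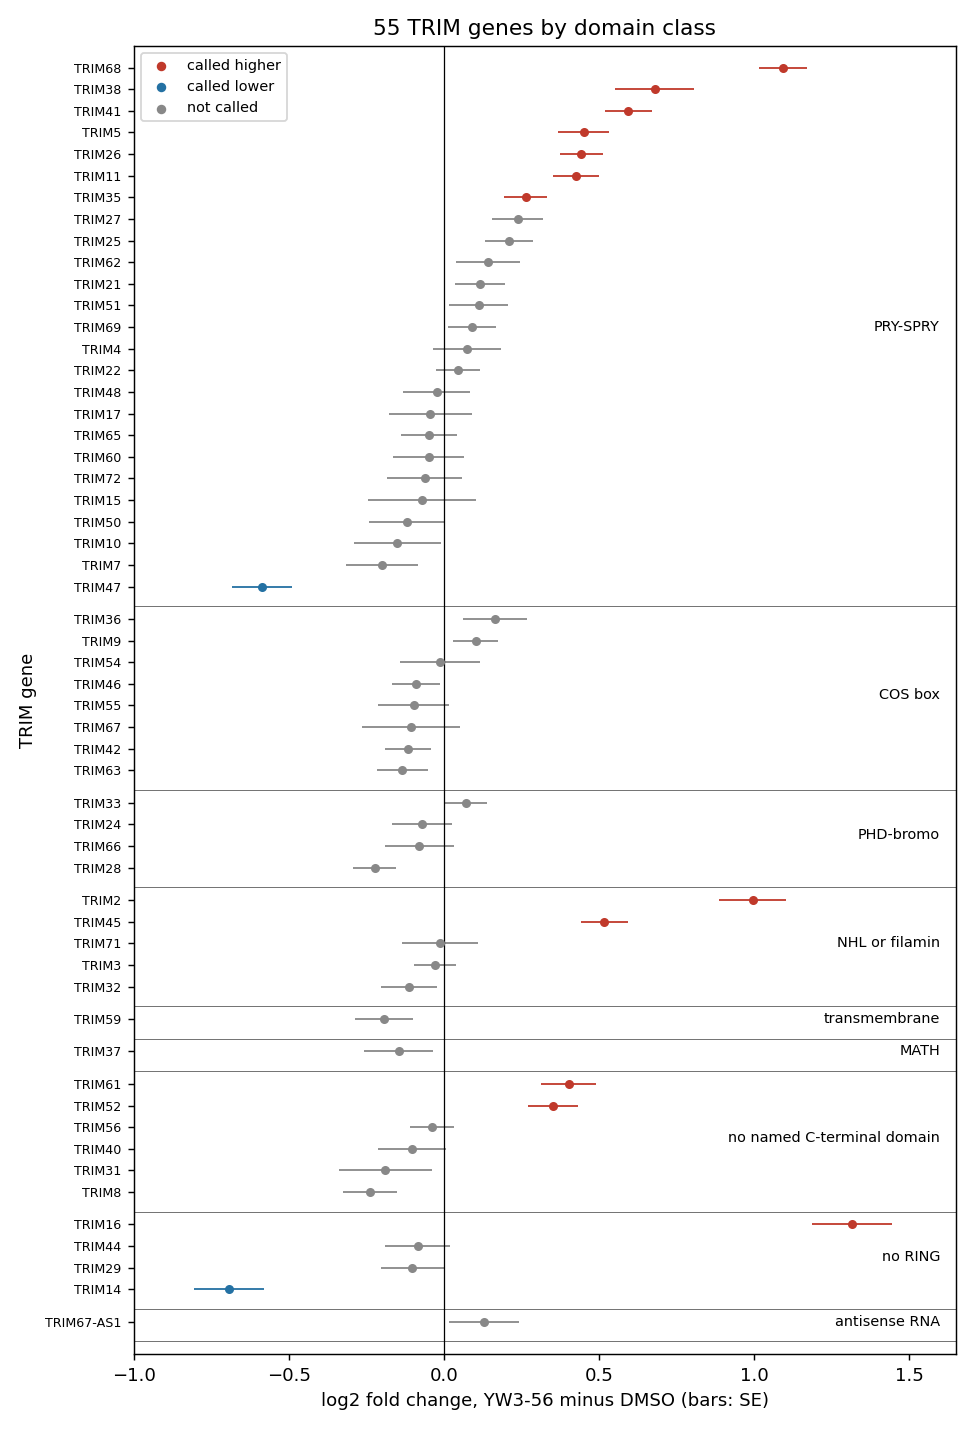
Log2 fold changes (YW3-56 minus DMSO) with SE bars are drawn for the 55 TRIM genes, grouped by domain class and coloured by call. Called rises appear in 4 classes, and 9.84% of all genes were called higher. The 8 genes with a COS box, the 4 with PHD and bromodomains, the transmembrane and MATH genes and the antisense RNA show none.

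TRIM28, TRIM24, TRIM33 and TRIM66 carry a PHD finger and a bromodomain and act on chromatin. Over all genes 21.4% were called and 5817 of 18417 had an unadjusted p under 0.05. None of these 4 members was called, and 1 had such an unadjusted p. That was TRIM28, the corepressor that KRAB zinc finger proteins recruit to silence genes and transposons, with 12.36, 12.40 and 12.39 in DMSO and 12.10, 12.18 and 12.20 in YW3-56. Its groups did not overlap, and its change of -0.22 ± 0.07 lay just outside the threshold (limma adjusted p = 0.0547; 95% interval -0.38 to -0.06). With replicate number as a block the TRIM28 change passed (adjusted p = 0.0456), as it did in 5 other alternatives. TRIM24, a histone reader and p53 ligase (-0.07), TRIM33, a regulator of SMAD signalling (0.07), and TRIM66 (-0.08) did not pass. The 95% interval of TRIM33 ran from -0.08 to 0.23.

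TRIM27 and TRIM25 came next after TRIM28. TRIM27, a PRY-SPRY ligase linked to autophagy and endosomal traffic, had 10.25, 10.09 and 10.24 in DMSO and 10.48, 10.33 and 10.49 in YW3-56, a difference of 0.24 ± 0.08 (limma adjusted p = 0.0801). TRIM27 passed in 5 of 15 alternatives, among them the fit with replicate number as a block (adjusted p = 0.0351). TRIM25, which ubiquitinates the RNA sensor RIG-I, had 11.56, 11.44 and 11.43 in DMSO and 11.68, 11.63 and 11.76 in YW3-56, a difference of 0.21 ± 0.08 (limma adjusted p = 0.0919). TRIM25 was called in 5 of 15, among them the fits without DMSO replicate 1 (adjusted p = 0.0497) and after a second quantile normalization (0.0329). For both, every treated value lay above every DMSO value.

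The 8 members with a COS box, which targets proteins to microtubules, include the muscle ligases TRIM54, TRIM55 and TRIM63 and the neuronal TRIM9, TRIM46 and TRIM67. None was called by limma or had an unadjusted p under 0.05, and their log2 fold changes ran from -0.13 for TRIM63 to 0.17 for TRIM36. All but TRIM9 lay below the median of gene means, where 8.2% of all genes were called. TRIM63, the atrophy-induced ligase MuRF1, was dim, with a mean of 6.39 in DMSO and 6.26 in YW3-56. TRIM37, which acts at peroxisomes and centrioles, changed by -0.14 ± 0.11, and TRIM59, a transmembrane member, by -0.19 ± 0.09. Neither passed (limma adjusted p = 0.45 and 0.207), and both had overlapping groups.

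By role, 10 of 12 antiviral members on the list were measured, of which 3 rose (TRIM38, TRIM5 and TRIM26), 1 fell (TRIM14) and 6 did not pass (median 0.11). These 4 calls were 40% of the 10, against 21.4% of all genes and 34.5% of the brighter ones. Not called were TRIM21, the cytosolic antibody receptor (0.12 ± 0.08, limma adjusted p = 0.39), and TRIM22, an interferon-induced restriction factor (0.05 ± 0.07, limma adjusted p = 0.736). TRIM22 was dim, from 5.53 to 5.63 in DMSO and from 5.57 to 5.67 in YW3-56, while its relative TRIM5, in the same gene cluster on chromosome 11, rose. TRIM56 (-0.04), TRIM65 (-0.05) and TRIM69 (0.09) were also not called. Of 4 measured members listed for autophagy or the endoplasmic reticulum, TRIM16 rose and TRIM17 (-0.04), TRIM50 (-0.12) and TRIM59 did not pass. That is 25.0% called, against 21.4% of all genes. None of the 4 measured members listed for p53, TRIM8, TRIM24, TRIM28 and TRIM32, was called, and 2 of them had an unadjusted p under 0.05. Over all genes 21.4% were called and 5817 of 18417 had such an unadjusted p. TRIM8, which also modulates cytokine signalling, changed by -0.24 ± 0.09 (limma adjusted p = 0.0938) with no overlap between its groups.

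Family genes often sit side by side, and the array gave 8 pairs of members with no protein-coding gene between them in RefSeq (GRCh38.p14). In 5 of these pairs 1 gene was called, in 3 neither was, and in 0 both were. Over all genes 21.4% were called, with 34.5% of the brighter ones and 8.2% of the dimmer ones. On chromosome 1, TRIM11 rose by 0.43 while TRIM17 measured -0.04. On chromosome 17, TRIM47 fell by 0.59 on the log2 scale while TRIM65 measured -0.05. On chromosome 4, TRIM61 measured 0.40 and TRIM60 -0.05. On chromosome 5, TRIM7 (-0.20) was not called beside TRIM41 (0.60), whose other nearby member, TRIM52, with RACK1 between, rose too. In the chromosome 6 cluster TRIM26 rose by 0.44, while TRIM31 (-0.19), TRIM40 (-0.10), TRIM10 (-0.15) and TRIM15 (-0.07) were not called. TRIM17, TRIM60, TRIM7 and TRIM15, each uncalled beside a called neighbour, lay below the median of gene means. TRIM65 and all the called neighbours lay above it. The chromosome 6 pairs share members, so the pairs are not independent of each other. The test of each pair's difference was not made.

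The 41 members that were not called had log2 fold changes between -0.24 (TRIM8) and 0.24 (TRIM27), and 33 of them were smaller than 0.15 in either direction. They include TRIM4 (0.08), TRIM42 (-0.12), TRIM48 (-0.02), TRIM51 (0.11), TRIM62 (0.14) and TRIM72 (-0.06), all with overlapping groups, and the antisense RNA TRIM67-AS1 (0.13). More than 1 probe set was present for 7 members, TRIM10, TRIM15, TRIM26, TRIM27, TRIM31, TRIM40 and TRIM51. The probe sets of TRIM15 and of TRIM27 held identical values. In TRIM51 the brightest set gave 0.11 and the others gave -0.0048, and none of the TRIM10, TRIM31, TRIM40 or TRIM51 sets passed in the fit of every named probe set.

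RefSeq promoter windows of 300 bases, from 250 before to 50 after the start, were found for 43 of the 55 members and for 11 of the 14 called ones, TRIM45, TRIM11 and TRIM35 being the others. The interferon-response core GAAANNGAA, searched on both strands, occurred in 8.3% of all 27305 promoters, in 8 of the 43 members and in 5 of the 11 called members. Those were TRIM2, TRIM26, TRIM14, TRIM5 and TRIM16, of which TRIM14 fell and the others rose. In TRIM5 and TRIM14 the match begins 26 and 25 bases before the start (positions -26 and -25), and in TRIM26 at -193 and -187, as the capitals above show. The GC box GGGCGG occurred in 44.6% of all promoters, in 23 of the 43 members and in 8 of the 11 called ones. The heat shock pair GAANNTTC was in 6.9% of all promoters and, among called members, in that of TRIM5. The antioxidant element TGACNNNGC was in 13.6% and in TRIM47, and the ATF4-type core TGATGNAA was in 3.7% and in TRIM2. The E-box CACGTG was in 7.4% of all promoters and in 0 of the 11. Each match is a match of letters only.

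Some genes of the family carry other names, and 5 of 17 of these rose while 0 fell (29.4% called against 21.4% of all genes, median 0.02). Only 4 of the 17 lay at or above the median of gene means, where 34.5% of all genes were called. The others lay below it, where 8.2% of all genes were called. TRIML2, a RING-less relative with a PRY-SPRY domain, had the largest rise of all the family genes examined. It measured 8.70, 8.67 and 8.70 in DMSO and 10.57, 10.32 and 10.63 in YW3-56, a change of 1.81 ± 0.09 (limma adjusted p = 4.2e-05). MID1 and MID2, microtubule-bound ligases with a COS box of which MID1 is mutated in Opitz syndrome, rose by 0.47 ± 0.09 and 0.50 ± 0.12 (limma adjusted p = 0.0072 and 0.020). MID1 had 11.12, 11.02 and 10.83 in DMSO and 11.50, 11.43 and 11.47 in YW3-56, again without overlap. The MID1 call held in all 15 alternatives, while that of MID2 was lost in 5, the per-gene test and the fits without DMSO replicate 2, DMSO replicate 3, YW3-56 replicate 1 or YW3-56 replicate 2 (adjusted p up to 0.108). RFPL2 (0.71) and RFPL3 (0.55), which are close copies of each other, completed the rises, and both lay below the median of gene means. RFPL2 lost its call in the per-gene test (adjusted p = 0.0878), and RFPL3 lost it in 5 of 14 alternatives, the per-gene test and the fits without DMSO replicate 2, DMSO replicate 3, YW3-56 replicate 1 or YW3-56 replicate 3 (adjusted p up to 0.145). PML, the organiser of nuclear bodies, changed by -0.28 ± 0.10 (limma adjusted p = 0.0952) and passed with replicate number as a block (adjusted p = 0.0245). The count of 5 was 3 without DMSO replicate 2, DMSO replicate 3 or YW3-56 replicate 1, 8 without DMSO replicate 1, and 2 in the per-gene test. Over all genes these fits called 14.4%, 18.2%, 16.6%, 25.5% and 15.5%, in that order.

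Among enzymes that feed TRIM ligases, falls outnumbered rises. Of 10 measured genes of ubiquitin, E1 and E2 enzymes, 1 rose and 5 fell (median -0.24), while UBE2D1 to UBE2D3, also listed, had no probe set of their own. All 10 lay above the median of gene means, so the 60.0% called and 50% called lower stand beside 34.5% and 18.8% of all genes that bright. UBE2N, the E2 that builds K63-linked chains, went from 10.66, 10.33 and 10.35 to 10.04, 9.71 and 9.85, a change of -0.58 ± 0.12 (limma adjusted p = 0.011) that was lost in the per-gene test (0.0789). UBE2E1 (-0.49), UBE2E2 (-0.36), UBE2K (-0.32) and the E1 enzyme UBA6 (-0.25) also fell, and the ubiquitin gene UBB rose by 0.33 ± 0.07 (limma adjusted p = 0.014), a call lost without DMSO replicate 2 or YW3-56 replicate 3 (adjusted p up to 0.0691). Without YW3-56 replicate 3 the count was 3, and 12.8% of all genes were called.

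Partners of TRIM28 in gene silencing fell in 4 of 10 genes and rose in 1 (median -0.23). All 10 were above the median of gene means, and 50% were called and 40% called lower, against 34.5% and 18.8% of all genes that bright. CBX5, the heterochromatin protein HP1 alpha, had 12.25, 12.42 and 12.36 in DMSO and 11.69, 11.82 and 11.84 in YW3-56, a change of -0.56 ± 0.08 (limma adjusted p = 0.0023). The HUSH complex genes PPHLN1 (-0.46) and TASOR (-0.45) and their cofactor MORC2 (-0.41) fell as well, and CHD3, a NuRD remodeller, rose by 0.30. The count was 8 of 10 with a trended prior or without genes of below-median signal. These fits called 24.6% and 45.2% of all genes that they tested.

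Genes of nucleic acid sensing, the pathway that several antiviral TRIM proteins modify, included 2 of 16 measured that rose and 1 that fell (18.8% called against 21.4% of all genes). An unadjusted p under 0.05 was seen for 8 of the 16, against 5817 of 18417 genes. The largest change of the list, that of TLR3 (0.72), did not pass (limma adjusted p = 0.0633), although its groups did not overlap. RNF135, the ligase Riplet that acts on RIG-I, rose by 0.52 ± 0.10 (limma adjusted p = 0.0068), and held its call in all 15 alternatives. The kinase TBK1 (0.31) and its target IRF3 (-0.28) were also called, but TBK1 lost its call in the per-gene test and without DMSO replicate 2, DMSO replicate 3 or any 1 YW3-56 replicate (adjusted p up to 0.123). IRF3 lost it without DMSO replicate 3 or any 1 YW3-56 replicate (adjusted p up to 0.101). With replicate number as a block 7 of the 16 were called, against 25.9% of all genes. The count was 6 after centring of each array and 1 without YW3-56 replicate 2 or YW3-56 replicate 3. Over all genes these fits called 19.8%, 14.4% and 12.8%, in that order. Of 37 measured interferon-stimulated genes 2 rose and 2 fell, 10.8%, which lies below the 21.4% of all genes. IRF9 (0.52) rose and IFIT5 (-0.60) fell, both in all 15 alternatives too. SAMD9 (0.51) lost its call in 4 of 15, the per-gene test and the fits without DMSO replicate 2, YW3-56 replicate 1 or YW3-56 replicate 2 (adjusted p up to 0.119). PSMB8 (-0.30) lost it in 9 of 14 (adjusted p up to 0.124): centring, a second quantile normalization, a trended prior, the per-gene test and every fit without 1 array except that without DMSO replicate 2. With the replicate block the count was 8, without DMSO replicate 1 it was 8, and without YW3-56 replicate 1 it was 2. Over all genes these fits called 25.9%, 25.5% and 16.6%, in that order.

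**Figure D4:**
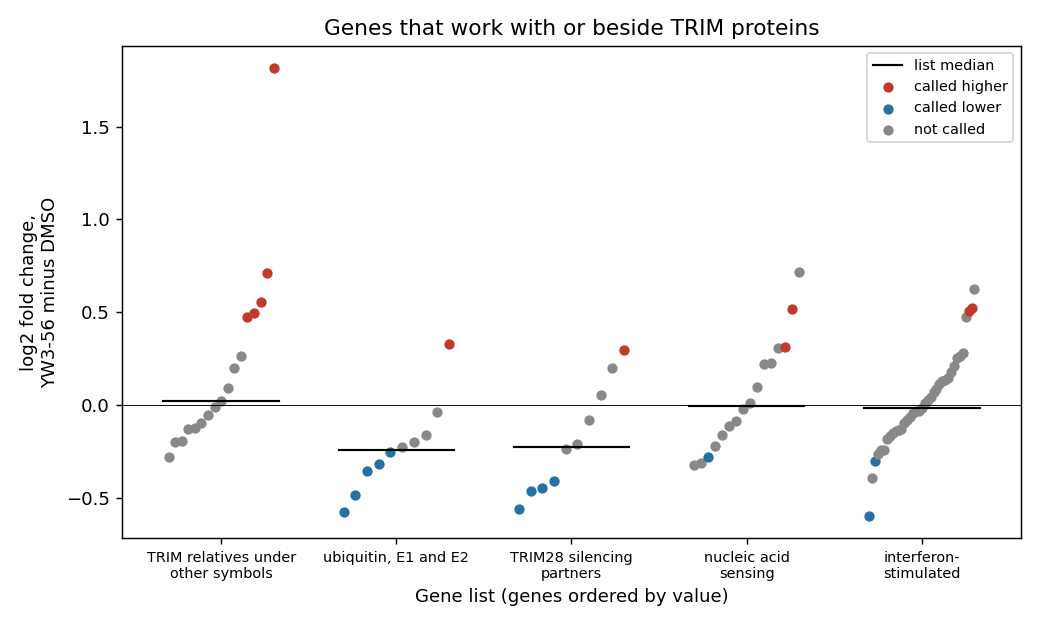
Log2 fold changes (YW3-56 minus DMSO) of single genes are plotted for 5 lists of genes that are related to TRIM proteins or work with them, coloured by call, with a black line at each list's median. The medians of the ubiquitin and TRIM28 partner lists are -0.24 and -0.23, and those of the other lists lie between -0.02 and 0.02.

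The label of the cell line was set against marker genes. Of 8 mesenchymal and basal markers, such as VIM and CD44, the mean signal stood at a median percentile of 99.5 among tested genes, and for 8 luminal markers, such as ESR1 and PGR, at 36.3. The lists overlapped: the first ran from 37.8 for SPARC to 99.7 for VIM, and the luminal one from 8.9 for PGR to 65.5 for ERBB2. Of the mesenchymal and basal markers CAV1 fell (-0.43, limma adjusted p = 0.0085), and of the luminal ones GATA3 fell (-0.37, 0.022) and FOXA1 rose (0.50, 0.040). These percentiles compare probe sets of unequal response and are only a rough guide. Of 7 measured markers of blood, endothelial and fibroblast cells, none was called and 1 had an unadjusted p under 0.05. Their percentiles ran from 3.3 for PTPRC to 62.3 for COL1A1, with a median of 14.6. The group means of these markers ran from 5.36 to 8.81 in DMSO and from 5.2 to 9.08 in YW3-56, with a sum of 46.2 in each. The arrays give no detection call, so a low signal cannot be told from background.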

How the data were processed

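The authors deposited log2 values of 33297 probe sets, 1 column for each of 6 arrays, made with RMA and the affy package, per the submitters' processing notes. Versions and genome build were not given in the sources used here. Since RMA equalises distributions between arrays, a change common to every transcript would not show. Arrays carry no read depth, so their number limits the precision, and the labels call the replicates biological without naming separate cultures, so p-values cover only the spread between these samples.

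The platform annotation, which can be old, gave 1 symbol for 19460 probe sets, several for 1754 and none for 12083. Only the first were used, and the brightest stood for its gene. Groups were compared with limma 3.58.1 in R 4.3.3 (lmFit and eBayes, group as the only term, two-sided, no filter on dim genes), adjusted by Benjamini-Hochberg over 18417 genes and called at 0.05. The procedure was tested on simulated data. Each log2 fold change is the YW3-56 mean minus the DMSO mean of the deposited log2 values, and intervals are 95%.

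The members and lists were chosen with earlier results of these data known, and domain classes come from textbook knowledge. The text names all called members, the largest change in each class, a preset group of members, the 3 nearest the threshold, up to 4 called genes per partner list, and PML, MID1 and MID2. Other genes were chosen after their values were seen. Deviations of same-numbered arrays correlated over genes at 0.54, 0.37 and 0.102 for replicates 1, 2 and 3, each above the bound of 0.1. The numbers were therefore treated as possible pairing, and the replicate block was run as an alternative. The value for replicate 3 barely passed, YW3-56 replicate 2 correlated better with DMSO replicate 3 (0.42), and the labels do not state pairing. The main fit and its p-values ignore any pairing. The closing section gives the other alternatives.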

Additional observations from a re-analysis of the deposited data

How the results depend on the processing

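Of the 14 called TRIM genes, 10 kept their call in each of the 15 alternatives that tested them, and TRIM35, TRIM38, TRIM52 and TRIM61 lost it in at least 1. None of the called genes named by the rule changed sign in any of them. Besides leaving out single arrays, these were the replicate block, a second quantile normalization, centring of arrays, 2 filters on dim genes, the mean of probe sets, a trended robust prior, the per-gene test and array weights. The number of called members ran from 11 to 14 when single arrays were left out (9 to 12 higher, 2 lower), and was 16 with the replicate block and 19 with array weights. Beside the calls given with their genes, the block changed no other member's call. Members called lower numbered 5 with array weights, and 4 with a trended robust prior or without genes of below-median signal; TRIM28 and TRIM8 were among the additions each time. Calls over all genes were 6079 with array weights and ran from 2364 to 4689 with single arrays left out.

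Among the partner lists, relatives under other symbols had 8 calls with array weights, 2 in the per-gene test and 3 to 8 with single arrays left out. The ubiquitin list had 3 to 5 with single arrays left out and the TRIM28 partners 8 with a trended prior or without genes of below-median signal. Nucleic acid sensing had 8 with array weights, 7 with the replicate block, 6 with centring, a trended prior or genes of below-median signal removed, and 1 to 4 with single arrays left out. Interferon-stimulated genes had 10 with array weights, 8 with the block, 7 with a trended prior, 2 in the per-gene test and 2 to 8 with single arrays left out. The causes were not tested. Centring moved the median change of all genes from -0.05 to -0.02, as did a second quantile normalization. The latter called 16 members and 4211 of all genes.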
